A study of Mus musculus with 12 samples.

Results

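The genes described here are 10 genes that thymocytes switch on when their T cell receptor (TCR) is engaged or when they pass positive selection: Egr1, Egr2, Egr3, Nr4a1, Cd69, Cd5, Cd6, Dusp2, Id3 and Itm2a. They were picked by symbol from a table of 18138 genes, in which 9 of the 10 were found; Cd5 was not analysed here. The RNA came from thymic T cells of C57BL6/J mice, 8 to 12 weeks old and of mixed sex, sorted for CD4, CD8, a low forward scatter and presence or absence of CD71. The 4 groups were mutant CD71-positive, mutant CD71-negative, wild-type CD71-positive and wild-type CD71-negative cells, with 3 arrays each. Mutants carried the I15N missense change in Ncaph2, which encodes the kleisin subunit of condensin II and which the labels call Caph2; the titles give the mutant genotype as nes/nes. Wild-type mice were Caph2+/+. The study compared immunophenotypically matched mutant and wild-type cells. Whether the 3 samples of a group are 3 animals is not stated in the labels, so the spread behind each p-value is that of these samples and may be technical.

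A thymocyte that carries both CD4 and CD8 tests its newly made TCR against peptides on MHC molecules of the thymic epithelium. A signal of moderate strength runs through the kinases LCK and ZAP-70 to calcium and to the Ras and ERK cascade, and within minutes induces immediate-early genes such as the Egr family and Nr4a1. Cells that receive it survive and mature, while cells without a signal die, and the surface proteins CD69 and CD5 are standard markers of its strength. CD71, the transferrin receptor, marks the early double-positive cells that are still dividing.

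The sort was visible in the RNA. Tfrc, which encodes CD71, was 2.47-fold higher in the CD71-positive mutant cells than in the mutant cells without it (limma adjusted p = 0.0068) and 2.22-fold higher in the wild-type ones (adjusted p = 0.014). Of 12 markers of double-positive thymocytes, 11 were detected, among them Cd4 and Cd8b1 on all 12 arrays, while Cd8a was detected on 0 arrays. Mean signal per array ran from 95.1 to 203, with 5893 to 7415 genes detected on an array, and across genes the arrays within a group correlated at 0.963 to 0.993. With 3 arrays a group, the number of arrays limits how precise each value is.

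Promoter windows were on file for 6 of the 10 genes, from RefSeq annotation of GRCm38.p6. Windows of 250 bases upstream of the start are shown for the 3 of these 6 genes that passed the test between sorted subsets in at least 1 genotype, Egr2 (wild type), Dusp2 (mutant) and Itm2a (both), and for Nr4a1, an immediate-early gene at background here. Both strands were searched, with overlaps allowed, for the CArG box of serum response factor, the CArG-like box with 1 C or G among its central bases, TGANTCA (AP-1), GCGNGGGCG (EGR), CACGTG (E box) and TGCGTCA. The last of these and the CArG-like box were added after the sequences had been seen. Capitals mark the matches.
Egr2, chr10:67537619-67537868, + strand: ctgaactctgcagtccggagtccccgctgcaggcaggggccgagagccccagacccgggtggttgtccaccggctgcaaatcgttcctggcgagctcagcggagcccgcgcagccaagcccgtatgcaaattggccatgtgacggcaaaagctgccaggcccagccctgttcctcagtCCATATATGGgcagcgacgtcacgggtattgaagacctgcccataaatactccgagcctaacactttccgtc
Dusp2, chr2:127335909-127336158, + strand: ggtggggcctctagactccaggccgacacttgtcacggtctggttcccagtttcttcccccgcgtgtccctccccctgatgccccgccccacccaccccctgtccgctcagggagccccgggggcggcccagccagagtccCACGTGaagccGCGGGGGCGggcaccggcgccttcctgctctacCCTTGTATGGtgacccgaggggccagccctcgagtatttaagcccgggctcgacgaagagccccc
Itm2a, chrX:107403361-107403610, - strand: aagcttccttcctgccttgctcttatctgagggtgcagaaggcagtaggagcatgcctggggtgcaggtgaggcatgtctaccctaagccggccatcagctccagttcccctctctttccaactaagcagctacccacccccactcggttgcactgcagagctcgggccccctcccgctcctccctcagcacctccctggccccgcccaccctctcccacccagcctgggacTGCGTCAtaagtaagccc
Nr4a1, chr15:101266596-101266845, + strand: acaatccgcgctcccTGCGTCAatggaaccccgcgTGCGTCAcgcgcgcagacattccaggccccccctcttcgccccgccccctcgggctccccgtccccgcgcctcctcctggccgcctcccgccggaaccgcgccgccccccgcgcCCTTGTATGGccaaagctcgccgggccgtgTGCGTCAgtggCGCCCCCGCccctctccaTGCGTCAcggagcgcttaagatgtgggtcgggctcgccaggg

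The Egr2 window is 1 of 5 for that gene and was chosen for its CArG box, CCATATATGG, 72 to 63 bases before the start. It is the first window with the CArG box that most windows of the gene hold. The same letters stand in 3 of the 5 windows, which overlap. Of the remaining Egr2 windows, 1 holds an E box only, and 1 holds the CArG box CCTTTTTTGG and a CArG-like box. Over all 32851 windows, 1.47% hold a CArG box. Dusp2 and Nr4a1 share the CArG-like box CCTTGTATGG, 65 to 56 bases before the start in Dusp2 and 101 to 92 bases before it in Nr4a1. A CArG-like box of any letters stands in 7.24% of windows. These 10 letters were picked because the 2 genes share them. They stand in 8 windows (0.0244%), those of Dusp2 and Nr4a1 among them. Both windows also hold an EGR match, found in 4.70% of windows: GCGGGGGCG in Dusp2 and its reverse complement CGCCCCCGC in Nr4a1. The Dusp2 window has an E box as well (6.02% of windows), and the Nr4a1 window holds TGCGTCA at 4 places (1.75% of windows hold it). The Itm2a window holds TGCGTCA once, 18 to 12 bases before the start, and none of the other motifs. TGANTCA, found in 6.75% of windows, is in none of the 4 windows shown. The windows of Cd5 and Id3, which are not shown, hold none of the motifs searched. These matches describe the letters only.

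In either genotype, most of the response genes were lower in CD71-positive cells than in cells without CD71. Levels are normalized log2 signals, and the test covered genes that 3 or more arrays detected (detection p under 0.05), which held for 7 of the 9. In mutant cells 5 of these 7 genes were lower (Egr1, Dusp2, Cd69, Cd6 and Itm2a) and 0 were higher, at an adjusted p under 0.05. Of the 8247 genes tested, 14.3% were lower and 14.5% higher. In wild-type cells 5 of 7 were lower (Egr1, Egr2, Cd69, Cd6 and Itm2a) and 0 were higher, where 13.1% of all genes tested were lower and 12% higher. The median log2 difference over the 7 genes was -1.15 in mutant and -1.29 in wild-type cells, while the median over all genes tested was -0.01 in each. In bulk samples such as these, fewer cells that express a gene and less of its RNA per cell cannot be told apart. Between genotypes, by contrast, 0 of 7 genes passed the test in either subset, where 0.424% of all genes tested passed in each. Both CD71 comparisons and both genotype comparisons draw on the same 4 groups, so they share samples.

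**Figure D1:**
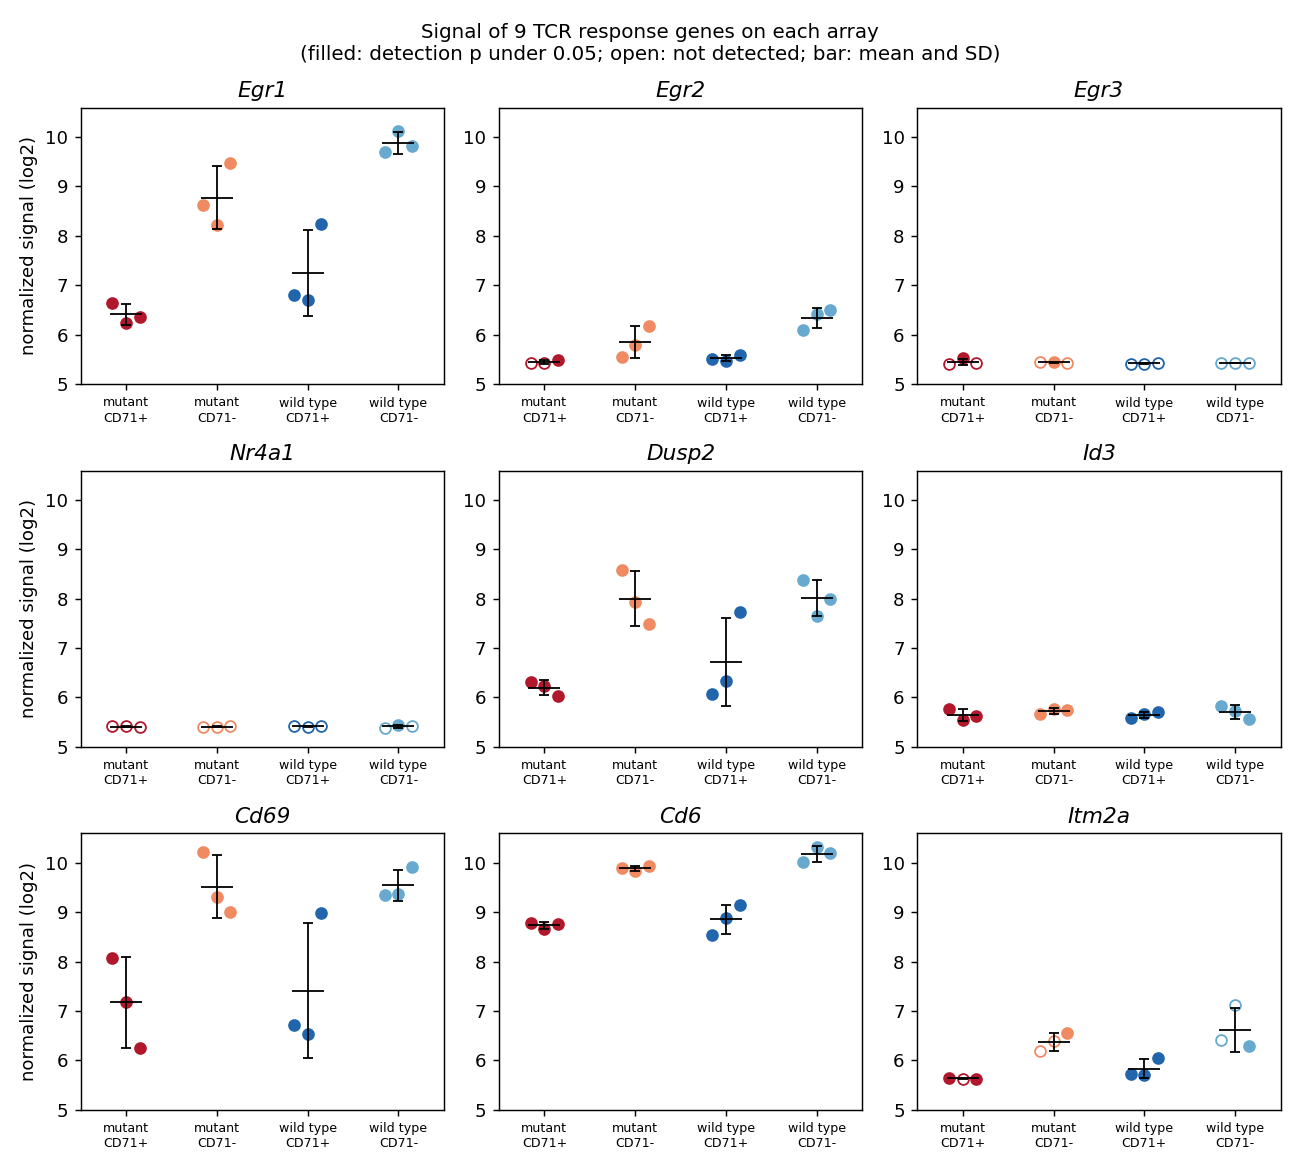
Normalized log2 signal (y axis) of the 9 genes in the table on each of the 12 arrays, by group; bars give the mean and SD of 3 arrays, and open points are arrays with no detection. Egr1, Dusp2, Cd69 and Cd6 sit lower in CD71-positive cells, with wild-type CD71-positive array 3 above its group, and Egr3 and Nr4a1 lie at the floor of the scale.

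Egr1 encodes a zinc finger transcription factor induced through ERK within minutes of TCR engagement. Its level was 6.64, 6.23 and 6.36 on the 3 mutant CD71-positive arrays and 8.62, 8.22 and 9.47 on the mutant CD71-negative arrays. It was 6.80, 6.70 and 8.24 in wild-type CD71-positive cells and 9.70, 10.13 and 9.82 in wild-type CD71-negative cells. The subsets did not overlap in either genotype, although wild-type CD71-positive array 3 lay between the rest of its group and the CD71-negative arrays. The log2 difference, CD71-positive minus CD71-negative, was -2.36 ± 0.43 (SE) in mutants (5.13-fold lower, adjusted p = 0.0029). In wild type the difference was -2.64 ± 0.43 (6.24-fold lower, adjusted p = 0.0018). Both calls held when any 1 array was left out and under each other processing tried.

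Egr1 and Egr2 were the genes with the lowest p-values between genotypes in CD71-negative cells, and neither passed after adjustment. For Egr1 in CD71-negative cells all 3 mutant arrays lay below all 3 wild-type arrays, with means of 8.77 ± 0.64 in mutant and 9.89 ± 0.22 in wild-type cells (SD, n = 3 each). The difference was -1.12 ± 0.43 (limma unadjusted p = 0.028, adjusted p = 0.37). In CD71-positive cells the mutant arrays again lay below the wild-type arrays, by a margin between 6.64 and 6.70 at the nearest pair, and the difference was -0.84 ± 0.43 (adjusted p = 0.70). Without wild-type CD71-positive array 3 that difference was -0.34. Averaged over both subsets it was -0.98 ± 0.30 (adjusted p = 0.19). With arrays weighted by their quality it was -1.19 and passed the threshold (adjusted p = 0.042). Under these weights 3.35% of all genes tested were lower in mutants in the average, against 0.315% without them. In order of their means, the groups ran from mutant CD71-positive (6.41) through wild-type CD71-positive (7.24) and mutant CD71-negative (8.77) to wild-type CD71-negative cells (9.89), and the genotypes within a subset did not differ past the threshold.

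Egr2 encodes a related factor that sustains the response and is needed for survival during positive selection. Its level was 5.43, 5.42 and 5.49 on the mutant CD71-positive arrays and 5.54, 5.80 and 6.18 on the mutant CD71-negative arrays. It was 5.51, 5.46 and 5.59 in wild-type CD71-positive cells and 6.10, 6.41 and 6.50 in wild-type CD71-negative cells. The CD71-positive arrays lay close to the floor of the scale at 5.33, where an added offset compresses differences, and only 1 of the 3 mutant CD71-positive arrays detected the gene. The difference between subsets passed the threshold in wild type (-0.82 ± 0.15, adjusted p = 0.0037), there also with any 1 array left out and under each other processing. In mutants it was -0.39 ± 0.15 (adjusted p = 0.084), although the arrays did not overlap, and without the first mutant CD71-negative array it was -0.55 (adjusted p = 0.019). The difference of these 2 differences was 0.42 ± 0.21 (adjusted p = 0.91), so a differing response of the genotypes was not shown. Between genotypes Egr2 differed by -0.50 ± 0.15 in CD71-negative cells (unadjusted p = 0.0093, adjusted p = 0.23), where the highest mutant array at 6.18 overlapped the lowest wild-type array at 6.10. With array weights that difference was -0.53 (adjusted p = 0.029), where 2.83% of all genes tested were lower in mutants, against 0.146% without weights.

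Egr3 and Nr4a1, an Egr family member and an orphan nuclear receptor gene widely used as a reporter of TCR signal strength, gave no measurable level. Egr3 was detected on 2 of 12 arrays, the second mutant CD71-positive and the second mutant CD71-negative array, and its level ran from 5.39 to 5.52. Nr4a1 was detected on 1 array, the second wild-type CD71-negative array, and ran from 5.39 to 5.44. With both at background in all 4 groups no fold change is given and neither was tested. Nr4a1 lies on chromosome 15, as Ncaph2 does. Id3, which encodes an inhibitor of E protein transcription factors and is itself an Egr target, was detected on all 12 arrays, at levels close to the floor. It lay between 5.54 and 5.77 in mutant CD71-positive, 5.66 and 5.77 in mutant CD71-negative, 5.58 and 5.70 in wild-type CD71-positive and 5.56 and 5.83 in wild-type CD71-negative cells. The groups overlapped, and the difference between subsets was -0.08 in mutants (95% interval -0.25 to 0.09) and -0.06 in wild type (-0.23 to 0.11).

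Dusp2 encodes a nuclear phosphatase that switches off MAP kinases and is induced by the signal it then limits. Its level was 6.32, 6.23 and 6.03 on the mutant CD71-positive arrays and 8.59, 7.93 and 7.50 on the mutant CD71-negative arrays. It was 6.07, 6.34 and 7.73 in wild-type CD71-positive cells and 8.38, 7.65 and 7.99 in wild-type CD71-negative cells. The mutant subsets were far apart, and Dusp2 fell by 1.81 on the log2 scale in mutant CD71-positive cells (SE 0.43, 3.51-fold lower, adjusted p = 0.012), a call that held in each alternative. In wild type CD71-positive array 3 lay inside the range of the CD71-negative arrays, and the difference of -1.29 ± 0.43 missed the threshold (adjusted p = 0.055). Without that array it was -1.81 (adjusted p = 0.0039), and without the first mutant CD71-negative array, which enters only through the shared spread, it was -1.30 (adjusted p = 0.047). The genotypes differed by -0.52 in CD71-positive cells (adjusted p = 0.90), a difference of -0.01 without array 3 of wild-type CD71-positive cells, and by 0.00 in CD71-negative cells (95% interval -0.97 to 0.96).

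Cd69 encodes the early activation antigen, a lectin-like protein that holds newly selected thymocytes in the thymus. Its level was 8.09, 7.19 and 6.25 on the mutant CD71-positive arrays and 10.23, 9.31 and 9.01 on the mutant CD71-negative arrays. It was 6.72, 6.53 and 8.98 in wild-type CD71-positive cells and 9.36, 9.36 and 9.91 in wild-type CD71-negative cells. The subsets did not overlap in either genotype, but the arrays of both CD71-positive groups were widely scattered. In CD71-positive cells Cd69 was lower, with a log2 difference of -2.34 ± 0.68 in mutants (5.07-fold lower, adjusted p = 0.030) and -2.13 ± 0.68 in wild type (4.39-fold lower, adjusted p = 0.049). The mutant call was lost (adjusted p = 0.064 to 0.095) without either of mutant CD71-positive arrays 2 and 3, and without either of mutant CD71-negative arrays 1 and 2. The wild-type call was lost without any of 9 arrays (adjusted p = 0.051 to 0.15), namely the 3 wild-type CD71-negative arrays, wild-type CD71-positive array 1 or 2, the 3 mutant CD71-negative arrays and mutant CD71-positive array 2. With the replicate number as a block neither call passed (adjusted p = 0.051 in mutants and 0.075 in wild type). Leaving out the high array 3 of wild-type CD71-positive cells gave -2.91 (adjusted p = 0.0051). The genotypes differed by -0.24 in CD71-positive cells, with a 95% interval of -1.78 to 1.31, and by 0.55 without that array. In CD71-negative cells they differed by -0.03, with an interval of -1.57 to 1.52.

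Cd6 encodes a scavenger receptor family protein of the T cell surface, a relative of CD5 that tunes TCR signals. It showed the tightest arrays of the genes well above the floor, with levels of 8.78, 8.66 and 8.76 in mutant CD71-positive cells and 9.90, 9.84 and 9.94 in mutant CD71-negative cells. It was 8.55, 8.89 and 9.15 in wild-type CD71-positive cells and 10.02, 10.33 and 10.21 in wild-type CD71-negative cells. The subsets were well separated in both genotypes. Cd6 was lower in CD71-positive cells, by a log2 difference of -1.15 ± 0.13 in mutants (2.23-fold lower, adjusted p = 0.00023) and -1.33 ± 0.13 in wild type (2.51-fold lower, adjusted p = 0.00011), and both calls held in each alternative. In CD71-negative cells the mutant arrays all lay below the wild-type arrays, by -0.30 ± 0.13 (unadjusted p = 0.053, adjusted p = 0.49), and in CD71-positive cells the genotypes overlapped (-0.12, adjusted p = 0.96). Without wild-type CD71-positive array 3 that last difference turned to 0.02, and without array 1 of the group it was -0.28.

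Itm2a encodes a transmembrane protein whose RNA appears in thymocytes during positive selection. Its level was 5.65, 5.63 and 5.63 in mutant CD71-positive cells and 6.19, 6.39 and 6.55 in mutant CD71-negative cells. It was 5.73, 5.71 and 6.06 in wild-type CD71-positive cells and 6.42, 7.13 and 6.30 in wild-type CD71-negative cells. The mutant CD71-positive levels lay close to the floor of the scale at 5.33, where the offset compresses differences. The subsets did not overlap, and the difference was -0.74 ± 0.20 in mutants (adjusted p = 0.021) and -0.78 ± 0.20 in wild type (adjusted p = 0.019). Its deposited detection p did not follow its signal: 7 arrays detected it, 5 of them CD71-positive, where the signal was lower. The mutant call was lost (adjusted p = 0.050 to 0.072) without any of the 3 mutant CD71-positive arrays, or array 2 or 3 of mutant CD71-negative cells. The wild-type call was lost (adjusted p = 0.060 to 0.068) without wild-type CD71-positive array 1 or 2. All 3 mutant CD71-positive arrays lay below the wild-type CD71-positive arrays, with a difference of -0.20 (adjusted p = 0.96), which was -0.09 without wild-type CD71-positive array 3.

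**Figure D2:**
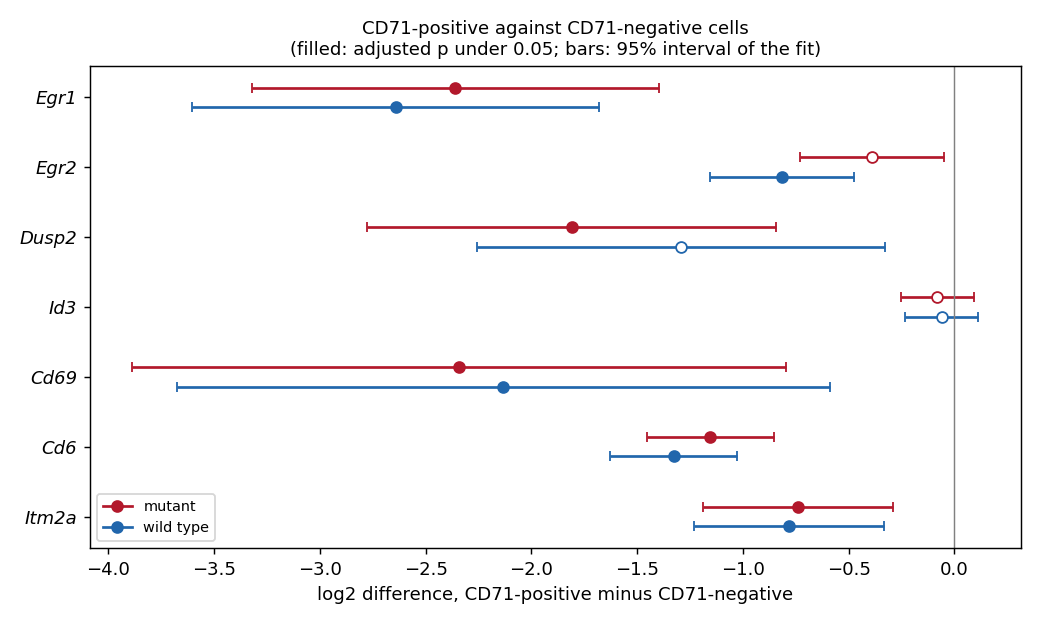
Log2 difference, CD71-positive minus CD71-negative cells (x axis), for the 7 tested genes in mutant and wild-type cells, with 95% intervals of the limma fit; filled points passed an adjusted p of 0.05. All 14 points lie below 0, from -0.06 for Id3 to -2.64 for Egr1.

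Counting arrays rather than fitted differences, 6 of the 7 genes had all 3 mutant CD71-positive arrays below all 3 mutant CD71-negative arrays, against 25.1% of the genes tested. In wild type 5 of 7 did, against 21%. The difference between the genotypes in their CD71 response was tested directly and 0 of 7 genes passed, where 0.0121% of all genes tested did. At an unadjusted p under 0.05 it was also 0 of 7, against 5.65%. The intervals of that test were wide: -1.08 to 1.64 for Egr1, -1.88 to 0.85 for Dusp2 and -2.39 to 1.98 for Cd69.

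Between genotypes, 6 of the 7 differences were below 0 in each subset, Id3 being the exception, where 50.6% of all genes tested were below 0 in CD71-negative and 53.1% in CD71-positive cells. The median over the 7 genes was -0.24 in CD71-negative and -0.20 in CD71-positive cells, against 0.00 over all genes tested, and in CD71-positive cells the median was -0.01 without wild-type CD71-positive array 3, where 4 of the 7 differences were below 0. In CD71-negative cells Dusp2 counted as below 0 at a difference of 0.00 and kept that sign in 13 of 21 alternatives. At an unadjusted p under 0.05 the limma fit gave 2 of 7 in CD71-negative cells (Egr1 and Egr2), where 10.4% of all genes tested did, 0 in CD71-positive cells (8.55%) and 2 in the average over both subsets (13%). After adjustment 0 of 7 passed in the average, against 0.909% of all genes tested. Mutant arrays lay wholly below wild-type arrays for 2 of 7 genes in CD71-negative cells (Egr1 and Cd6; 6.98% of genes tested) and for 2 of 7 in CD71-positive cells (Egr1 and Itm2a; 7.35%).

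**Figure D3:**
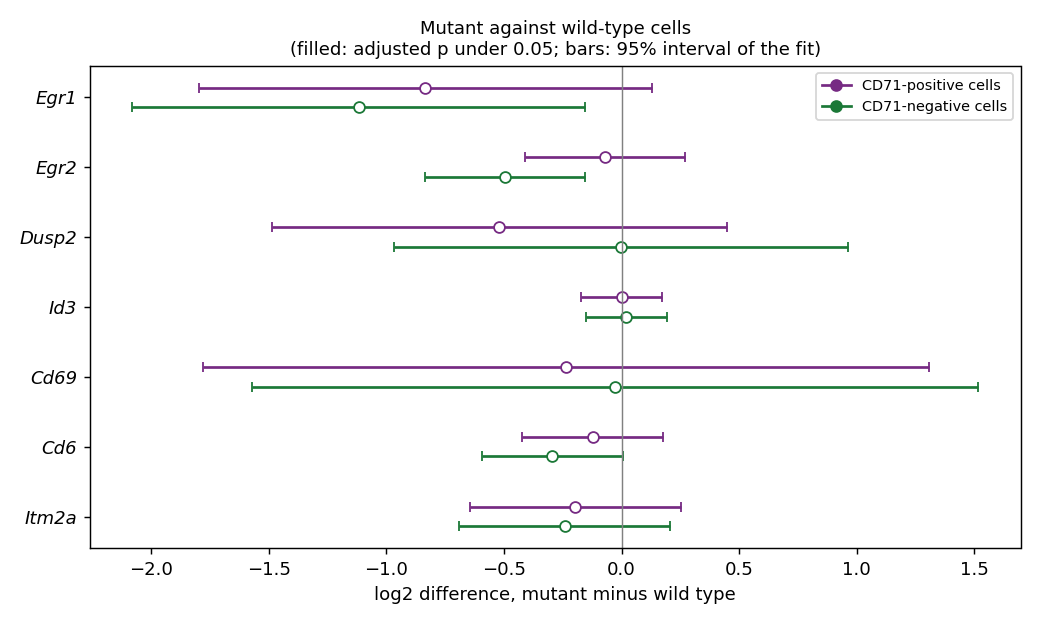
Log2 difference, mutant minus wild type (x axis), for the same 7 genes in CD71-positive and CD71-negative cells, with 95% intervals of the limma fit; open points did not pass an adjusted p of 0.05. Each point is open; the intervals of Egr1 and Egr2 in CD71-negative cells lie wholly below 0 before adjustment.

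The genes did not scatter alike within groups. Deviations of each array from its group mean correlated at 0.83 between Cd69 and Dusp2 and at 0.72 between Egr1 and Cd6, but at -0.42 between Egr2 and Dusp2 (12 arrays in 4 groups, given as description). Wild-type CD71-positive array 3 stood above its group mean for 7 of 7 genes, by 1.57 for Cd69, 1.02 for Dusp2 and 1.00 for Egr1. The summed signal of the double-positive markers was also highest of its group there, at 10800 on the normalized linear scale against 8740 and 9820 on the other wild-type CD71-positive arrays. The first mutant CD71-negative array had the highest Cd69 and Dusp2 of its group and was below its group mean for Egr1, Egr2 and Itm2a. Its summed signal of mature single-positive T cell markers was 774, against 494 and 512 on the other arrays of the group. The part of these markers in the results was not tested.

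**Figure D4:**
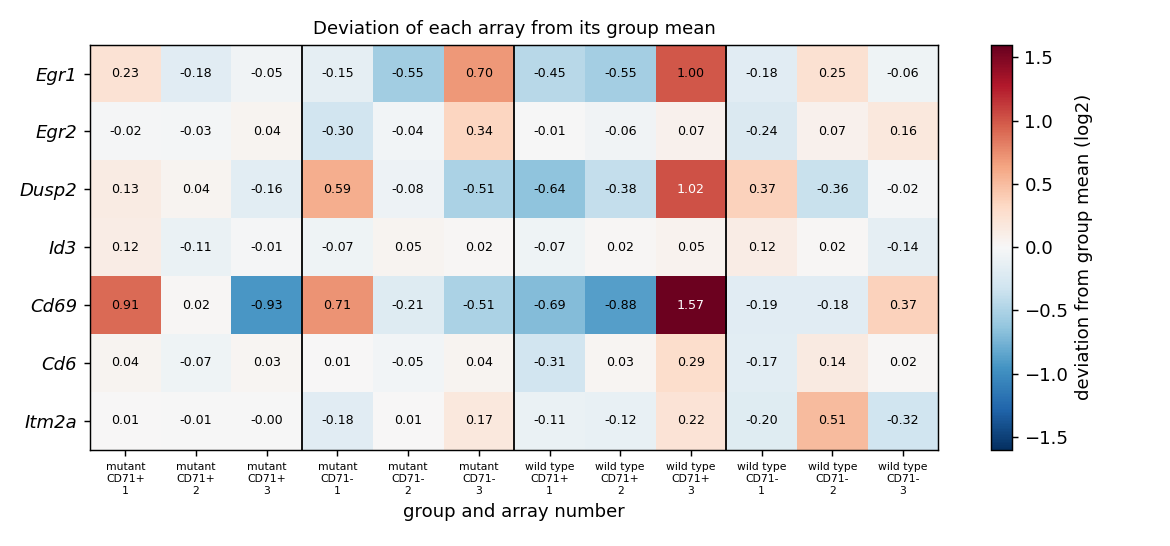
Deviation of each array from its group mean (colour and printed value, log2) for the 7 tested genes (rows) on the 12 arrays (columns, grouped by sort and genotype). Wild-type CD71-positive array 3 is above its group mean for all 7 genes, most for Cd69 at 1.57.

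Outside the 7 genes, those whose levels ran most like their mean z-score over the 12 arrays were A430107D22Rik, Nfrkb, Lrp10, Pja1 and Txnip (Pearson r 0.97 to 0.98). These points share the split of the arrays by CD71.

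The subsets also differed in genes that transmit the TCR signal. Of 25 tested genes of proximal signalling, 15 were lower and 0 higher in mutant CD71-positive cells, with a median of -0.92 over the 25; the share of all genes tested was 14.3% lower and 14.5% higher. In wild type 13 were lower and 0 higher (median -0.85), against 13.1% and 12% of all genes tested. Differences below are log2, CD71-positive minus CD71-negative. Lck, the kinase that phosphorylates the TCR complex first, was lower by -1.31 ± 0.10 in mutant (adjusted p = 2.0e-05) and by -0.93 ± 0.10 in wild-type cells (adjusted p = 0.00017). For Prkcq, the protein kinase C of the T cell synapse, the differences were -1.13 in mutant and -1.30 in wild-type cells (adjusted p = 6.4e-05 and 3.4e-05). Trat1, a TCR-associated adaptor, differed by -1.43 in mutant and -1.17 in wild-type cells (adjusted p = 7.9e-05 and 0.00027), and Vav1, a guanine nucleotide exchange factor, by -1.01 and -1.32 (adjusted p = 0.00033 and 8.2e-05).

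In the calcium, NFAT and NF-kappaB arm 6 of 21 tested genes were lower in mutant and 7 of 21 in wild-type CD71-positive cells, and 0 were higher in either, with medians of -0.07 and -0.12. Of all genes tested, 14.3% were lower and 14.5% higher in mutants, and 13.1% lower and 12% higher in wild type. The inositol trisphosphate receptor gene Itpr1 differed by -1.68 in mutant and -1.79 in wild-type cells (adjusted p = 0.00068 and 0.00055), and Itpr2 by -1.05 and -1.26 (adjusted p = 0.0017 and 0.00071). Nfatc1, an NFAT factor that calcineurin activates, differed by -0.09 in mutant cells (adjusted p = 0.16) and was lower in wild type (-0.28 ± 0.04, adjusted p = 0.0011). Stim1, the calcium sensor of the endoplasmic reticulum, differed by -0.80 in mutant and -0.40 in wild-type cells (adjusted p = 0.0019 and 0.055). In the Ras and ERK arm 3 of 14 genes were lower and 1 higher in mutants, against 14.3% and 14.5% of all genes tested, and 3 were lower and 0 higher in wild type, against 13.1% and 12% (medians -0.02 and -0.12). At this list size these counts are near the background. Elk3, an ETS factor that acts with serum response factor, differed by -0.43 in mutant and -0.71 in wild-type cells (adjusted p = 0.0014 and 9.3e-05). Araf, a RAF kinase gene, differed by -0.78 in mutants and -0.71 in wild type (adjusted p = 0.028 and 0.046), and Srf, serum response factor itself, by -0.41 in mutants and -0.49 in wild type (adjusted p = 0.044 and 0.024). The Araf call in mutants ended on leaving out any of the 3 mutant CD71-positive arrays, or array 2 or 3 of mutant CD71-negative cells (adjusted p = 0.060 to 0.10). Its call in wild type ended on leaving out any of 8 arrays (adjusted p = 0.062 to 0.14): the 3 mutant CD71-positive arrays, array 3 of mutant CD71-negative cells, arrays 1 and 2 of wild-type CD71-positive cells, and arrays 2 and 3 of wild-type CD71-negative cells. The wild-type Srf call ended on leaving out any of the 3 wild-type CD71-positive arrays, or array 2 or 3 of wild-type CD71-negative cells (adjusted p = 0.057 to 0.072). The mutant Srf call was not followed through the alternatives.

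Among 27 tested genes of negative feedback, to which Dusp2 is akin, 14 were lower in mutant and 8 in wild-type CD71-positive cells, with 0 higher in either (medians -0.21 and -0.25). The shares of all genes tested were 14.3% lower and 14.5% higher in mutants, and 13.1% and 12% in wild type. Dusp6, an ERK phosphatase, differed by -1.13 in each genotype (adjusted p = 8.9e-05 in mutant and 1.0e-04 in wild-type cells). Dgka, which removes the diacylglycerol that feeds Ras, differed by -2.72 ± 0.31 in mutant and -2.04 ± 0.31 in wild-type cells (adjusted p = 0.00019 and 0.0011). Sit1, an inhibitory transmembrane adaptor, differed by -1.92 in mutant and -1.01 in wild-type cells (adjusted p = 0.00025 and 0.0100), and Nfkbid, an atypical inhibitor of NF-kappaB, by -0.82 and -0.83 (adjusted p = 0.00044 and 0.00045). The other TCR-induced genes held few calls: 3 of 17 were lower in mutants, near the 14.3% background, and 2 of 17 in wild type, near 13.1%, with 0 higher (medians -0.06 and -0.06). Bcl6, a transcriptional repressor, differed by -2.46 in mutant and -1.71 in wild-type cells (adjusted p = 0.0014 and 0.011). Bcl2l11, which encodes the death effector BIM, differed by -0.24 in mutants and -0.38 in wild type (adjusted p = 0.036 and 0.0045), and its mutant call ended on leaving out any of the 3 mutant CD71-positive arrays, or array 1 or 2 of mutant CD71-negative cells (adjusted p = 0.079 to 0.11). Slfn1, a Schlafen gene of quiescent T cells, differed by -0.29 in mutants (adjusted p = 0.014, and 0.052 without mutant CD71-positive array 1) and by -0.14 in wild type (adjusted p = 0.21).

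Of 20 tested genes of positive selection and maturation, 9 were lower in mutant and 11 in wild-type CD71-positive cells, and 0 were higher (medians -0.21 and -0.20). Over all genes tested, 14.3% were lower and 14.5% higher in mutants, and 13.1% lower and 12% higher in wild type. Slamf1, a homotypic receptor of cortical thymocytes, differed by -0.87 in mutant and -0.86 in wild-type cells (adjusted p = 6.3e-05 and 7.6e-05). The entry 5830405N20Rik, a synonym of Tespa1 in RefSeq and needed for selection, differed by -1.72 in mutant and -1.44 in wild-type cells (adjusted p = 0.00086 and 0.0027), and the adhesion gene Cd2 by -1.23 and -1.84 (adjusted p = 0.0072 and 0.00089).

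**Figure D5:**
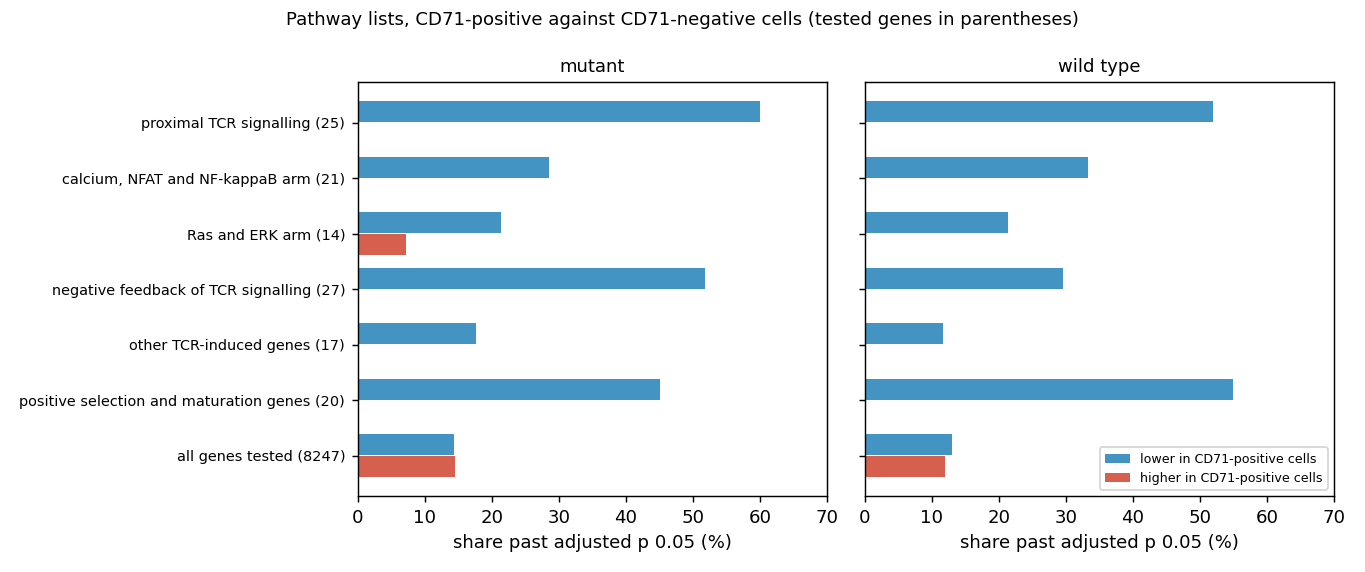
Share of the tested genes of each list (x axis, percent) that were lower or higher in CD71-positive cells than in those without CD71, at an adjusted p under 0.05, in mutant and wild-type cells, with the share over all 8247 genes tested at the bottom. The bars of proximal signalling stand for 15 of 25 genes in mutant and 13 of 25 in wild-type cells.

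Most markers of double-positive cells, and in mutants most of myeloid and dendritic cells, differed between the CD71 subsets past the threshold. The summed normalized signal of the double-positive markers was 7740 to 7840 in mutant CD71-positive and 17900 to 19000 in mutant CD71-negative cells, and 8740 to 10800 in wild-type CD71-positive and 18500 to 20100 in wild-type CD71-negative cells. Of 11 tested markers, 9 were lower and 0 higher in mutant CD71-positive cells, and 8 were lower and 1 higher in wild-type CD71-positive cells, against the shares of all genes given above. The higher one, named after its value was seen, was Ptcra, which encodes the pre-TCR alpha chain (0.13 ± 0.04, adjusted p = 0.032). The mature single-positive markers Ccr7, Il7r and Bcl2 were weakly detected, S1pr1 and Ms4a4b were detected on 0 arrays, and 1 of 6 tested genes of that list was lower in mutant and 2 in wild-type CD71-positive cells, with 14.3% and 13.1% of all genes tested lower. Myeloid and dendritic markers were higher for 7 of 10 tested genes in mutant CD71-positive cells and for 0 of 10 in wild type, with 14.5% and 12% of all genes tested higher. Their summed signal was 900 to 2660 in mutant CD71-positive and 618 to 629 in mutant CD71-negative cells. It was 703 to 864 in wild-type CD71-positive and 597 to 602 in wild-type CD71-negative cells. Detection of the single markers ran from 11 arrays for each of Lyz, Cd74 and H2-Ab1 to 0 arrays for Itgax. The highest sum was on the second mutant CD71-positive array, without which 12 of 25 proximal signalling genes, 11 of 27 feedback genes, 6 of 19 maturation genes and 1 of 14 Ras and ERK genes were lower in mutants. Over all genes tested, 1182 were lower in mutants with every array in the fit, 847 without that array and 841 without mutant CD71-positive array 1. Without mutant CD71-positive array 2 Cd69 and Itm2a also lost their mutant calls, as given above. The part of these cells in the results was not tested.

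Between genotypes, the lists held few calls. Of all genes tested, 0.424% passed in each subset and 0.909% in the average over both. Nfatc1 was lower in mutant than in wild-type CD71-negative cells, at 5.75 ± 0.06 in mutant and 6.01 ± 0.07 in wild-type cells (SD, n = 3 each; difference -0.26 ± 0.04, limma adjusted p = 0.039). It was also lower in the average over both subsets (-0.16 ± 0.03, adjusted p = 0.045). The first call ended on leaving out any of 8 arrays (adjusted p = 0.055 to 0.13): the 3 mutant CD71-positive arrays, arrays 2 and 3 of mutant CD71-negative cells, arrays 2 and 3 of wild-type CD71-positive cells, and array 1 of wild-type CD71-negative cells. The second ended on leaving out any of these 8, and either of wild-type CD71-negative arrays 2 and 3 (adjusted p = 0.057 to 0.11). In 7 of the 9 other settings the first was also lost (adjusted p = 0.054 to 0.25), among them the replicate block. Runx1, a Runt factor of T cell development, was lower in the average over both subsets (-0.33 ± 0.05, adjusted p = 0.018). Its means were 6.02 in mutant CD71-positive and 6.37 in wild-type CD71-positive cells, and 6.23 in mutant CD71-negative and 6.55 in wild-type CD71-negative cells. Leaving out array 1 or 2 of wild-type CD71-negative cells ended that call (adjusted p = 0.056 and 0.057), as did the background from dim genes, cyclic loess and a trended, robust variance prior (adjusted p = 0.066, 0.077 and 0.084). No other gene of the 6 lists passed the test in any genotype comparison, and 0 passed in the test of the difference between subsets. In mutant against wild-type CD71-positive cells the 10 myeloid and dendritic markers had a median of 0.80, against -0.003 over all genes tested. Of these markers 0 passed the threshold, which at this list size is near the share of 0.424% over all genes tested.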

How the data were processed

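RNA was prepared with Trizol and RNeasy columns, and 80 ng was amplified with biotin label for one-colour arrays, per the labels' protocols. The authors deposited a table of linear signal intensity per gene symbol and array, with a detection p-value for each, per the file headers. A second deposited table holds the authors' processed intensity values for 18132 symbols; RMA is named in the submitters' processing notes. Array probes and the build are not given in the sources used here. Signals were background corrected and quantile-normalized on the log2 scale with neqc (limma 3.58.1, R 4.3.3), which uses the deposited detection p-values and adds an offset of 16. The offset understates log2 differences of dim genes. The test took the 8247 genes that 3 or more arrays detected, at a detection p under 0.05.

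The 12 arrays were fitted together with a mean for each of the 4 groups (lmFit, eBayes), with 1 common spread. The 6 contrasts were tested two-sided and adjusted by Benjamini and Hochberg over all genes tested. The genes and the 6 pathway and 7 marker lists were chosen with earlier results of these data known. Named list genes are up to 3 per list and contrast with the smallest p-values past the threshold; Tfrc is named as the gate marker. Some genes that this rule picks are not reported here. Marker sums add normalized linear signals of all genes of a list in the table. In all, 9 other settings were run besides leaving out each of the 12 arrays in turn. Counts of the pathway lists without 3 single arrays were added after the data were seen. The fit was tested on simulated data. No 2 arrays held identical values.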

Additional observations from a re-analysis of the deposited data

How the results depend on the processing

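The tested genes kept their direction between CD71 subsets, for Egr1, Egr2, Cd69, Cd6, Dusp2 and Itm2a, in all 21 alternatives. Of the 7 genes, 3 to 5 were lower in mutant CD71-positive cells with 1 array left out, and 3 to 6 in wild type, where 3 were lower with only the compared arrays. Under other settings Egr2 passed in mutants with the background from dim genes, the authors' values, array weights, a trended and robust prior and the replicate block (adjusted p = 0.0036, 0.032, 0.0034, 0.039 and 0.037). Cd69 was lost in mutants with no filter (0.062), and in wild type with cyclic loess, no filter, only the compared arrays and array weights (0.059, 0.098, 0.11 and 0.087). Itm2a was lost with cyclic loess (0.11 in mutants, 0.062 in wild type) and in wild type with only the compared arrays (0.099). Dusp2 passed in wild type with the dim-gene background, cyclic loess, the authors' values and the trended prior (0.017, 0.047, 0.034 and 0.019). Array weights gave 1 of 7 genes lower in mutants in CD71-negative cells and 2 in the average. With these weights 2.83% and 3.35% of all genes tested were lower, against 0.146% and 0.315% in the main fit.

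Counts over all genes varied more. In CD71-negative cells 35 genes differed between genotypes, against 8 (cyclic loess), 55 (authors' values), 20 (no filter), 2 (compared arrays), 461 (array weights) and 53 (trended prior), and 14 to 121 with 1 array left out. The split of 23 higher and 12 lower was 44 and 7 with the dim-gene background and 228 and 233 with array weights. In CD71-positive cells 35 became 6, 22, 16, 2 and 207 under cyclic loess, the authors' values, no filter, the compared arrays and array weights, 23 with the replicate block, and 14 to 60 with 1 array left out. There the split of 24 and 11 was 21 and 3 with the dim-gene background and 3 and 3 with cyclic loess. The average gave 75, against 18 (cyclic loess), 35 (no filter), 554 (array weights) and 27 to 133; its split of 49 and 26 was 64 and 21 with the dim-gene background. The difference between subsets gave 1, against 45 with array weights, 0 with the dim-gene background, cyclic loess, the authors' values, no filter, the trended prior and the replicate block, and 0 to 5. The mutant CD71 count of 2375 was 4358 with array weights and 1771 to 2483 with 1 array left out, and the wild-type count was 1521 to 2153. The cause was not tested.

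Replicate numbers are shared between groups in the sample descriptions. The titles instead number on from the CD71-negative to the CD71-positive samples of each genotype. Deviations of samples with the same number in their descriptions correlated at -0.41 to 0.59, over 0.1 in 11 of 18 pairs. Of the 12 samples, 6 correlated best with their own number. All 3 pairs of mutant CD71-positive with wild-type CD71-negative samples were over 0.1 (0.28, 0.35 and 0.59), but for no 2 groups that were compared directly were all 3, so the numbers were not taken as pairs. With the replicate block Cd69 had adjusted p = 0.051 in mutants and 0.075 in wild type. Of the other named genes, the average call of Nfatc1 was lost under 6 settings (adjusted p = 0.057 to 0.19), and the wild-type call of Araf under 7 (0.053 to 0.14). Cyclic loess ended the mutant calls of Slfn1 and Bcl2l11 (0.069 and 0.16) and the wild-type call of Srf (0.062), and no filter ended the mutant calls of Araf and Bcl2l11 (0.058 and 0.068). Signal over background limits Egr3, Nr4a1, Id3 and Egr2 most, and Itm2a in mutant CD71-positive cells.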

Other observations

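The remaining marker lists, beside the myeloid and dendritic one, were summed in the same way. The summed normalized signal was 258 to 260 in mutant CD71-positive and 267 to 273 in mutant CD71-negative cells for B cell markers, and 255 to 263 in wild-type CD71-positive and 263 to 269 in wild-type CD71-negative cells. Erythroid markers gave 254 to 256 in mutant CD71-positive and 252 to 255 in mutant CD71-negative cells, and 255 on each wild-type CD71-positive array and 254 to 256 in wild-type CD71-negative cells. Thymic epithelium markers lay between 169 and 176 on all arrays. The list for NK and innate-like T cells gave 440 on the second mutant CD71-positive array and 379 on the first mutant CD71-negative array, and 297 to 331 on the others, with 0 of 3 tested genes past the threshold in any comparison. Fcer1g stands in both this list and the myeloid and dendritic list, whose sum was also highest on the second mutant CD71-positive array.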
